A study of Homo sapiens with 6 samples.

Results

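The 45 genes described here act in homologous recombination and in the Fanconi anemia pathway of DNA repair. They were chosen by name, as a list of symbols, and all 45 were found among the 16779 genes of the deposited tables. All 45 also passed the filter on low counts, with 83 to 3470 reads per gene and library. Messenger RNA was counted by RNA-seq in 6 libraries labelled A549, an established cell line derived from lung adenocarcinoma. Of these, 3 are labelled wild type, called control here, and 3 are labelled as a knockout of RN7SK. That gene makes 7SK, a small nuclear RNA that keeps the transcription elongation kinase P-TEFb inactive. No treatment, time point or other allele is named for either group. Whether the knockout cells are 1 clone, and whether the 3 libraries of a group came from separate cultures, is not stated in the sources at hand. The p-values then measure only the spread between these libraries.

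Homologous recombination repairs a broken chromosome by copying the intact sister, and is used mainly in S and G2 phase. Nucleases trim the broken ends to single strands, BRCA1 and BRCA2 with their partners load a recombinase on them, and helicases and nucleases resolve the joined molecules. The Fanconi pathway removes links between the strands of the double helix: a core complex attaches ubiquitin to FANCD2 and FANCI, which then call in nucleases and the recombination proteins. Many of these genes are known to be transcribed in step with the cell cycle, through E2F factors.

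The identity of the libraries limits each comparison below. RN7SK has 0 rows in the deposited tables, and the knockout could not be checked on its own target. A549 is known to have lost CDKN2A, yet that gene had 51.0 ± 2.37 CPM in the control libraries (CPM, read counts relative to the scaled library total; mean ± SD, n = 3 in each group here and below) against 0.0609 ± 0.0615 CPM in the knockout libraries. The epithelial keratin KRT8 was high in both groups, at 1544 ± 60.2 and 2965 ± 37.9 CPM. CDH1 (29.2 and 158.4 CPM), KRT7 (510.1 and 1278 CPM) and KRT18 (1323 and 1605 CPM) were, like KRT8, higher in the knockout. Of 11 listed epithelial and lung markers 5 were tested, and all 5 were higher, beside 42.0% of all genes tested. EPCAM (0.53 and 0.446 CPM), KRT19 (0.0535 and 0.0783 CPM) and the lung lineage gene NKX2-1 stayed under 1 CPM, and SFTPB and SFTPA1 had 0 counts throughout. Summed endothelial markers, 9 genes of which TIE1 was at 0, were at 162 to 175 CPM in the control and 4.19 to 4.92 CPM in the knockout libraries. Nearly all of the control sum came from ESAM (110.1 CPM) and ENG (54.6 CPM). PECAM1, VWF, KDR and TEK were under 0.1 CPM in the control, with slightly higher means in the knockout libraries. CDH5 (1.655 and 0.294 CPM) and ROBO4 (1.899 and 0.139 CPM) were low in both groups and higher in the control. The part of these marker differences in the results below was not tested. Group names below are those of the labels. A difference of genotype and one of cell identity cannot be told apart.

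Most of the repair genes had less mRNA in the knockout libraries. Of the 45, 28 were lower, 11 were higher and 6 did not pass the test (edgeR quasi-likelihood test, adjusted p under 0.05 over 12929 genes). The 39 that passed are 86.7% of the list, beside 85.0% of all genes tested, so passing does not set these genes apart. The direction was uneven: 62.2% of the list was lower and 24.4% higher, where 43.0% of all genes tested were lower and 42.0% higher. At a change of at least 2-fold, 12 members (26.7%) were lower, against 14.1% of all genes tested, and 1 member (2.22%) was higher, against 19.5%. The median log2 fold change, knockout over control, was -0.57 over the list and -0.007 over all genes tested. In 37 members (82.2%) the CPM of the groups did not overlap, as in 85.6% of all genes tested. In bulk libraries such as these, fewer cells in a given phase and less RNA per cell cannot be told apart.

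**Figure D1:**
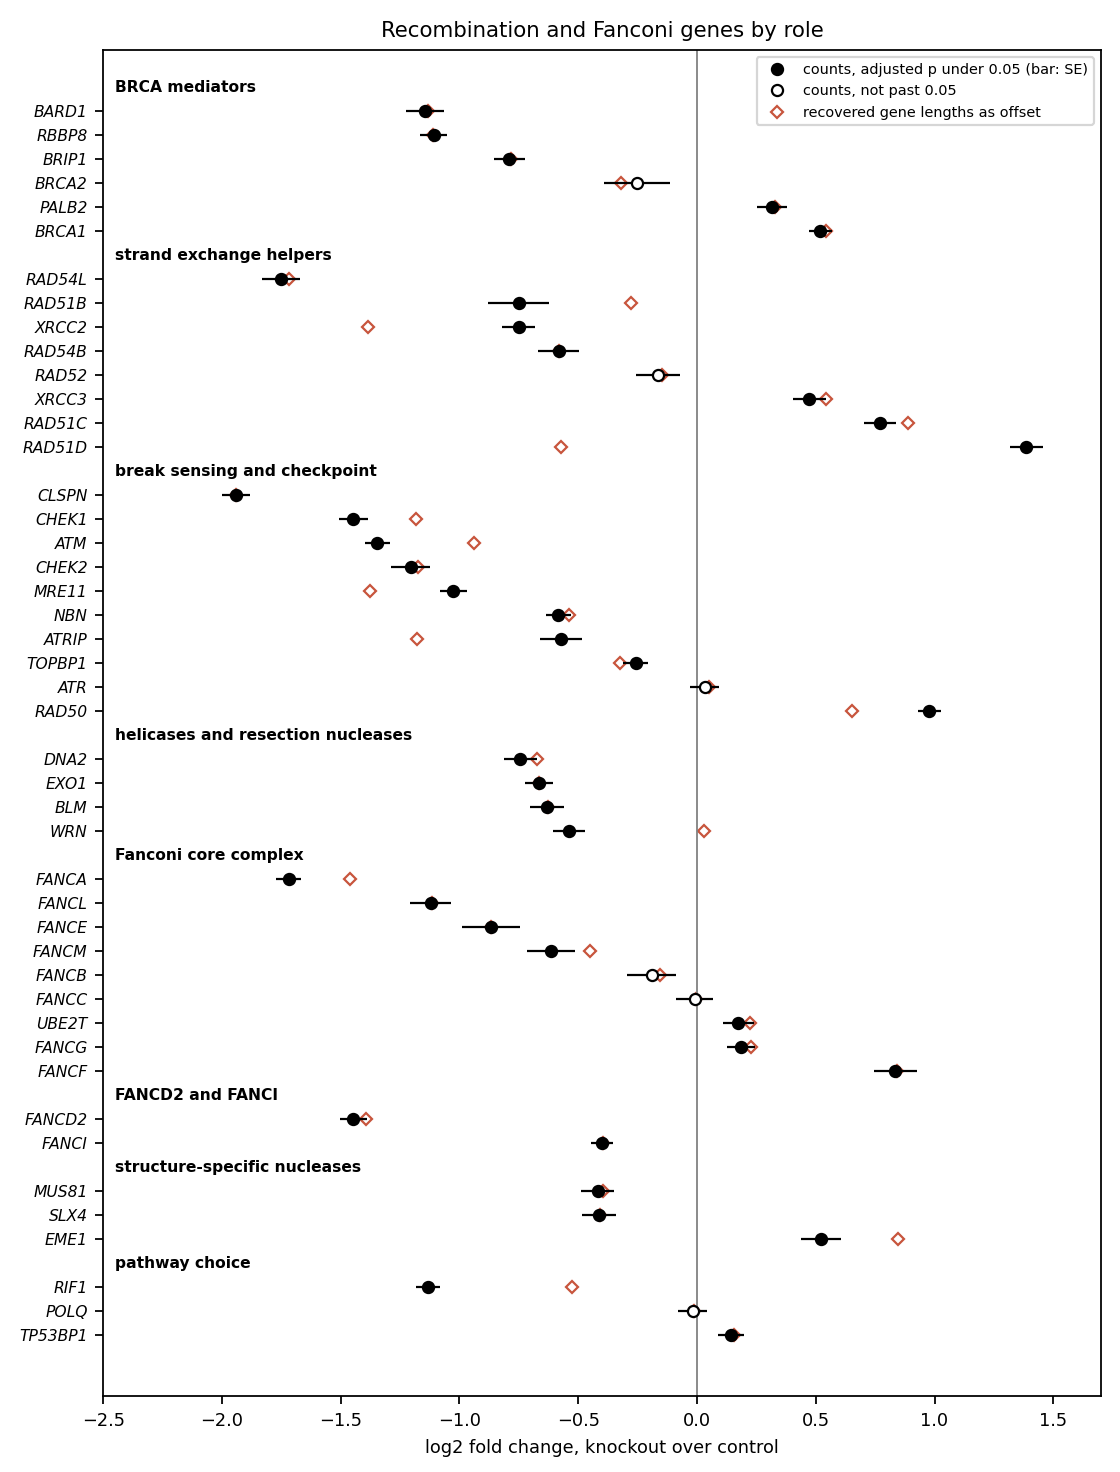
Log2 fold change (knockout over control) of the 45 genes, ordered within their role; black points are the fit to read counts with its SE, open where the adjusted p did not pass 0.05, and red diamonds the fit with recovered gene lengths as an offset. Most points lie left of 0, from -1.94 for CLSPN, and RAD51D is the one gene whose symbols lie far apart on opposite sides of 0.

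The gene models behind the deposited values differed between the groups, and this bears on some members. The ratio of a gene's count to its deposited FPKM (fragments scaled to length and depth) gives the gene length used. Between the groups this length agreed within 1% for 16 of the 45 genes and differed by over 1.2-fold for 11. Among the 16 with matching lengths, 11 (68.8%) were lower and 3 (18.8%) higher, with a median log2 fold change of -0.61. Of all genes tested with matching lengths, 42.8% were lower and 42.4% higher. Among the other 29 members, 17 (58.6%) were lower and 8 (27.6%) higher, with a median of -0.54, beside 43.1% and 41.8% of all such genes. When the recovered lengths were put into the count model as an offset, 28 members (62.2%) were lower and 10 (22.2%) higher, where 40.7% of all genes in that fit were lower and 44.6% higher. Values from that model are given beside each called member whose change it moved by over 1.5 times. Which of the models fits the RNA of these cells was not tested.

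The genes that open the recombination pathway were divided. BRCA1, a ubiquitin ligase subunit that starts recombination (chr17:43044295-43170327, GRCh38), had 107, 102 and 102 CPM in control replicates 1 to 3. Knockout replicates 1 to 3 had 149.6, 149 and 147 CPM, each above every control library. The rise was 1.43-fold (adjusted p = 3.14e-12). BARD1, the partner with which BRCA1 forms its ligase (chr2:214725646-214809683), went the other way. It had 34.6, 35.2 and 31.1 CPM in the control libraries and 14.3, 14.7 and 16.7 in the knockout libraries, a 2.21-fold fall (adjusted p = 6.39e-15). RBBP8, which encodes the end-trimming factor CtIP (chr18:22914139-23026486), also fell. Its control libraries had 115, 112 and 103 CPM and its knockout libraries 52.6, 46.8 and 53.7, a 2.16-fold difference without overlap.

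BRCA2, which carries the recombinase to single-stranded DNA (chr13:32315077-32400268), did not pass the test. It had 40.5, 26.6 and 35.4 CPM in control replicates 1 to 3 against 28.2, 28.4 and 29.5 in the knockout. Control replicate 2 lay below all knockout libraries and the other control libraries lay above them. The log2 fold change was -0.25 ± 0.14 (fit ± SE, adjusted p = 0.124), and without control replicate 2 it was -0.41 (adjusted p = 1.71e-08). In the other alternatives it lay between -0.12 and -0.32, with adjusted p from 3.84e-04 to 0.245. PALB2, which joins BRCA1 to BRCA2, rose from 34.8 ± 0.462 to 43.4 ± 1.09 CPM. BRIP1, a helicase that binds BRCA1, fell from 49.3 ± 2.80 to 28.5 ± 1.01 CPM.

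Among the genes that help in strand exchange, RAD54L changed by the largest factor. This motor protein remodels DNA during strand invasion (chr1:46247688-46278473). Its control libraries held 42.1, 43.0 and 42.3 CPM and its knockout libraries 12.4, 14.2 and 11.3. The groups lay far apart, and the fitted fall was 3.37-fold (adjusted p = 2.98e-20). Its relative RAD54B fell 1.5-fold. RAD52, an annealing protein, had overlapping groups at 18.3 ± 1.31 and 16.3 ± 2.15 CPM and did not pass (adjusted p = 0.102), except without knockout replicate 1 (log2 fold change -0.27, adjusted p = 0.0226).

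The 5 paralogs that stabilise the recombinase filament did not move as one. RAD51C rose 1.71-fold, from 26.8 ± 1.87 to 45.6 ± 0.489 CPM, and XRCC3 rose 1.39-fold. Their protein products form a pair. RAD51B and XRCC2 each fell 1.68-fold in counts. With recovered lengths as offset, the log2 fold change of XRCC2 went from -0.75 to -1.38 and that of RAD51B from -0.75 to -0.28. RAD51B lost its call on log2(FPKM + 0.1) (-0.22, limma adjusted p = 0.128).

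RAD51D (chr17:35092221-35119860) was the 1 member that was at least 2-fold higher in counts, and its direction depended on the gene model. It had 19.4, 19.3 and 20.4 CPM in the control libraries and 53.4, 48.6 and 52.5 in the knockout libraries. The groups were far apart, with a log2 fold change of 1.39 ± 0.07 (adjusted p = 2.82e-19). The length recovered for it was 2583 bases from the control tables but 10043 bases from the knockout tables. Per length the sign turned: 7.42 ± 0.229 FPKM in the control and 5.09 ± 0.264 in the knockout, and -0.57 with the lengths as offset (adjusted p = 3.61e-09). In the GENCODE annotation RAD51D shares exon sequence on the same strand with the gene RAD51L3-RFFL, over 8.01% of its exon bases. The count of RAD51D is therefore given without a direction of expression.

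Genes of break sensing and of the checkpoint kinases were mostly lower, 8 of 10, with 1 higher. The shares over all genes tested were 43.0% lower and 42.0% higher. CLSPN encodes Claspin, the adaptor through which the kinase ATR activates CHK1 (chr1:35720213-35769978). It had 114.5, 120.5 and 119 CPM in the control against 31.9, 30.9 and 29.2 CPM in the knockout libraries. At 3.84-fold (log2 fold change -1.94 ± 0.06, adjusted p = 1.26e-25) this was the largest fall of the 45, and its gene length was nearly equal in both groups. CHEK1, which encodes CHK1 itself (chr11:125625136-125681124), fell 2.73-fold, from 82.3, 87.3 and 77.1 CPM to 30.9, 28.9 and 30.6 CPM. CHEK2, the kinase downstream of ATM, fell 2.31-fold from 36.2 ± 3.42 to 15.7 ± 1.15 CPM. The kinase genes at the head of these branches differed from each other.

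ATM, which answers to double-strand breaks (chr11:108223067-108369102), had 156, 140.3 and 150 CPM in the control libraries. The knockout libraries had 57.6, 58.9 and 59.05 CPM, a 2.54-fold fall with no overlap (adjusted p = 3.53e-22). With lengths of 15403 and 11628 bases as offset, the log2 fold change of ATM was -0.94 in place of -1.35, under 2-fold. ATR, which answers to single-stranded DNA at stalled forks (chr3:142449235-142578733), had 61.7, 55.3 and 63.6 CPM against 58.9, 61.1 and 64.8 CPM. Those groups overlapped, and the log2 fold change was 0.03 ± 0.06 (adjusted p = 0.616). ATRIP, which brings ATR to its sites, fell by 0.57 on the log2 scale. With the lengths as offset its log2 fold change was -1.18, and 27.9% of its annotated exon bases are shared with TREX1 on the same strand. TOPBP1, the activator of ATR, fell 1.2-fold.

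The MRN complex is the first to bind a break, and its 3 genes did not move together. All 3 are given in full because of this contrast, which was chosen after the values were seen. MRE11, the nuclease, had 83.2, 81.8 and 77.8 CPM in the control against 40.1, 39.4 and 39.7 in the knockout libraries, a 2.04-fold fall. RAD50, the ATPase that holds the ends, had 93.0, 87.8 and 87.1 CPM in the control against 177.7, 168.6 and 181.1 CPM in the knockout libraries. It was 1.97-fold higher, the one member of the sensing group that rose. NBN, the signalling subunit, fell 1.5-fold, from 110.6, 107.5 and 100.2 CPM to 73.5, 68.5 and 70.1 CPM. With the lengths as offset the log2 fold change of RAD50 was 0.65 in place of 0.98, and 79.7% of its exon bases are shared in GENCODE with the gene AC116366.3 on the same strand.

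The 4 genes for long-range resection and unwinding were all lower in counts, by 1.45-fold to 1.67-fold, where 43.0% of all genes tested were lower. EXO1, an exonuclease that extends resection (chr1:241847986-241889939), went from 66.3, 73.5 and 67.1 CPM to 42.9, 43.2 and 44.6 CPM. The length used for it was 3836 bases in both groups. DNA2, the nuclease of the parallel route (chr10:68414064-68472521), had 41.9, 45.3 and 42.1 CPM in the control against 28.1, 24.3 and 24.6 in the knockout libraries. BLM, a helicase that works with DNA2, fell 1.55-fold. WRN, a related helicase, fell 1.45-fold in counts, but its log2 fold change was 0.028 with the lengths as offset (adjusted p = 0.699). The lengths of WRN were 7980 bases in the control and 5383 bases in the knockout tables.

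In the Fanconi core complex and its ubiquitin-conjugating enzyme, 4 of 9 genes were lower, 3 higher and 2 did not pass. These shares, 44.4% lower and 33.3% higher, are near those of all genes tested. FANCA, a scaffold subunit (chr16:89737549-89816647), had 162.9, 156.4 and 164.3 CPM in the control libraries. It had 48.8, 50.8 and 47.2 CPM in the knockout libraries, a 3.29-fold fall (adjusted p = 2.19e-25). FANCL, the ubiquitin ligase subunit (chr2:58159243-58241380), fell 2.18-fold, from 25.3, 30.7 and 26.7 CPM to 12.8, 12.5 and 12.7 CPM. FANCE, which links the core to FANCD2, fell 1.82-fold, and FANCM, which anchors the complex to DNA, fell 1.53-fold. FANCF, an adaptor, went against these and rose from 11.7 ± 0.775 to 20.9 ± 0.685 CPM.

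The remaining core genes changed little. FANCG rose 1.14-fold. UBE2T, the conjugating enzyme, rose 1.13-fold with overlapping groups, and lost its call without control replicate 1 (log2 fold change 0.15, adjusted p = 0.064) or knockout replicate 1 (0.11, adjusted p = 0.152). FANCB, at 13.6 ± 1.43 and 11.9 ± 0.901 CPM, did not pass, except without control replicate 3 (log2 fold change -0.25, adjusted p = 0.0373). FANCC, at 25.6 ± 2.63 and 25.5 ± 1.35 CPM, did not pass in any alternative.

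The targets of the core complex both fell, by unequal amounts. FANCD2 (chr3:10026437-10101932) had 99.0, 98.5 and 97.1 CPM in the control against 35.8, 36.2 and 36.2 CPM in the knockout libraries. The libraries of a group were within 2 CPM of each other, and the fall was 2.73-fold (adjusted p = 2.54e-22). FANCI (chr15:89243979-89317259) had 149.3, 146.7 and 141.5 CPM against 112.6, 108.2 and 110.6 CPM, a 1.32-fold fall (adjusted p = 1.59e-09). Neither length nor library left out changed these calls.

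Of the nuclease genes that cut joined or crosslinked DNA, MUS81 and EME1 encode 1 heterodimer and moved in opposite directions. MUS81 (chr11:65859674-65867653) fell from 43.5, 46.7 and 43.7 CPM to 34.5, 36.2 and 29.4 CPM. EME1 (chr17:50373229-50381483) rose from 15.4, 15.6 and 15.1 CPM to 20.4, 22.8 and 23.1 CPM. The groups did not overlap for either gene. With lengths as offset the log2 fold change of EME1 was 0.84 in place of 0.52. SLX4, the scaffold that gathers the nucleases, fell 1.33-fold.

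Genes that set the choice between recombination and end joining were likewise divided. RIF1, which blocks resection (chr2:151409902-151534435), had 187.4, 174.9 and 167.4 CPM in the control against 78.6, 80.5 and 82.6 CPM in the knockout libraries, a 2.19-fold fall. With lengths of 15175 and 9965 bases as offset, its log2 fold change was -0.53 in place of -1.13. TP53BP1, which recruits RIF1 to breaks (chr15:43403061-43510640), had 94.5, 88.2 and 101 CPM against 103.5, 110.5 and 99.7 CPM. The groups overlapped, and its rise of 0.14 ± 0.05 on the log2 scale (adjusted p = 0.0144) was lost without control replicate 2 (0.093, adjusted p = 0.0544) or knockout replicate 2 (0.10, adjusted p = 0.13). POLQ, the polymerase of microhomology end joining, did not pass in any alternative, at 42.6 ± 1.27 and 42.1 ± 1.89 CPM.

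**Figure D2:**
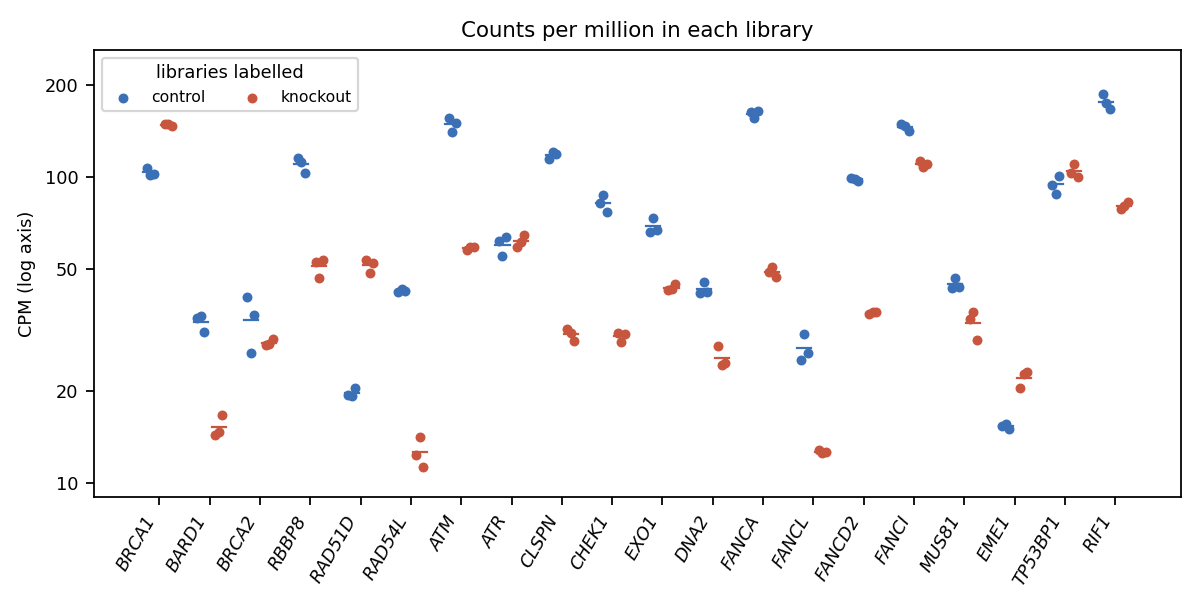
CPM (log axis) in each of the 3 control and 3 knockout libraries for the 20 genes described in full by the naming rule; dots are libraries and short lines the group means. Groups are apart for every gene but BRCA2, ATR and TP53BP1, and the knockout dots lie higher for BRCA1, RAD51D and EME1.

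Levels between genes were compared per length, on the deposited FPKM scale. In the control libraries UBE2T was highest at 46.8 ± 1.24 FPKM, followed by FANCI at 29.6 ± 0.891 and RBBP8 at 26.5 ± 1.54. RAD51B was lowest at 0.704 ± 0.0366 FPKM. In the knockout libraries UBE2T was again highest at 55.5 ± 4.65 FPKM, followed by FANCI at 23.0 ± 0.494 FPKM. Behind it stood FANCG at 21.6 ± 0.433, RAD50 at 21.1 ± 0.879 and BRCA1 at 20.6 ± 0.0877 FPKM. FANCG and RAD50 did not differ beyond their spread, nor did RAD50 and BRCA1. FANCA, next in the control after RBBP8 at 21.2 ± 0.571 FPKM, was at 7.85 ± 0.247 FPKM in the knockout libraries.

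Whether partners kept their proportion was asked with the ratio of their read counts in each library, which no scaling between libraries touches. The groups did not overlap in any of the 10 pairs. Single genes did not overlap in 85.6% of all genes tested, no share was computed for other pairs of genes, and the count of 10 is therefore a description only. With 3 against 3 libraries an exact two-sided permutation test cannot go below p = 0.1, and each pair was at that limit (adjusted over the 10 pairs, also 0.1). BRCA1 had 3.09, 2.89 and 3.29 reads per BARD1 read in the control libraries and 10.5, 10.1 and 8.82 in the knockout libraries. MRE11 had 0.895, 0.933 and 0.894 reads per RAD50 read in the control against 0.225, 0.234 and 0.219 in the knockout libraries. FANCD2 had 0.663, 0.672 and 0.686 reads per FANCI read in the control against 0.318, 0.335 and 0.327 in the knockout libraries. In these 3 pairs the shift exceeded the spread within a group many times over, and the ratio of FPKM shifted by nearly the same log2 amount: 1.676, -2.029 and -0.9989 against 1.665, -2.004 and -1.046 in counts.

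The other pairs shifted less, or by an amount that depended on length. The MUS81 to EME1 ratio went from a geometric mean of 2.91 to one of 1.51. ATR had 3.15 reads per ATRIP read in the control and 4.79 in the knockout libraries. The RAD51D to XRCC2 ratio shifted by 2.14 on the log2 scale in counts and by 0.81 in FPKM. CHEK1 and CLSPN, which both fell, went from 0.696 to 0.983 reads of CHEK1 per CLSPN read. The smallest shift in counts was that of RAD51C against XRCC3, 0.30 on the log2 scale, from 0.886, 1.03 and 0.789 to 1.099, 1.048 and 1.16.

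**Figure D3:**
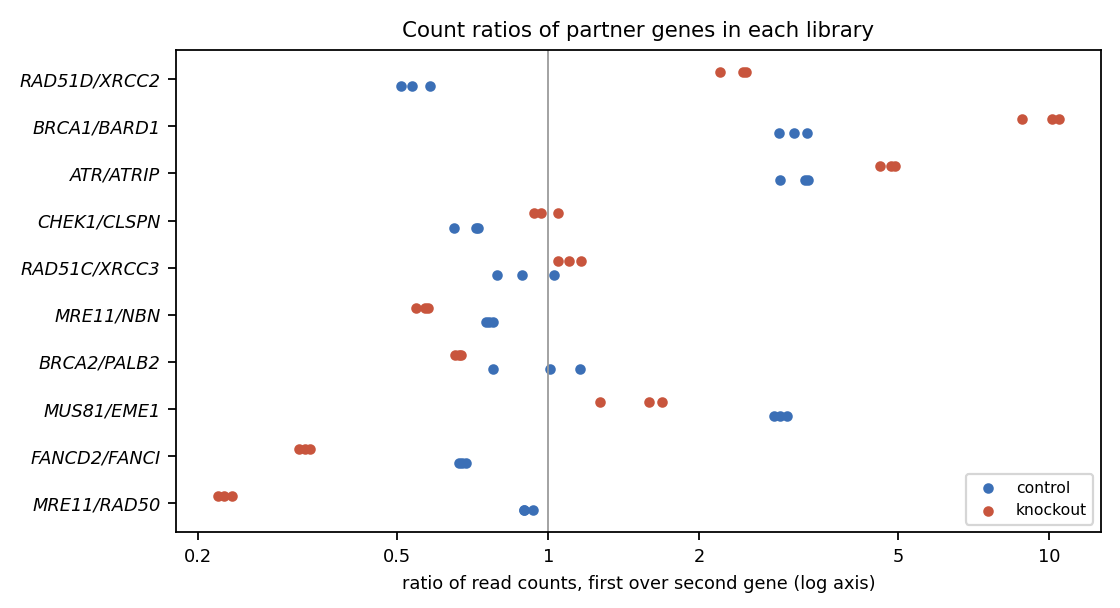
Ratio of read counts (log axis, first gene over second) for 10 pairs of partner genes; each dot is 1 library, control in blue and knockout in red, and the grey line marks equal counts. The groups do not overlap in any pair, and MRE11/RAD50 and RAD51D/XRCC2 are the pairs farthest apart.

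Promoter sequences are shown as a description only, and their part in the changes above was not tested. RefSeq windows of 300 bases (GRCh38.p14, 250 before to 50 after an annotated start) were found for 40 of the 45 genes (not matched: NBN, RAD54B, WRN, DNA2 and FANCI). An annotated start need not be the one used in these cells. Each was searched on both strands for the words TTTCCCGC, TTTGGCGC, TTCCCGCC, TTTCGCGC and TTGGCGGG, which resemble E2F sites and can overlap each other. At least 1 word was present in 13 of the 40 windows (32.5%). The share was 6.15% of all 27305 windows, 9.89% of the windows of genes tested, and 75.9% of those of a list of S phase and replication genes. Of the members that were lower, 9 of 23 windows held a word, as did 1 of 11 of those that were higher, XRCC3. The remaining 3 belong to members that did not pass: RAD52, FANCC and POLQ. CCAAT, the box bound by NF-Y, was in 45.0% of member windows, 35.7% of all windows and 36.4% of those of genes tested. The cell cycle words TTTGAA and TTCGAA were in 15% of member windows, 16.6% of all windows, 11.1% of those of genes tested and 75.0% of those of a list of G2 and mitosis genes.

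Stretches of 60 bases around the word nearest to the start are printed for 6 genes that fell, then for XRCC3, which rose, and POLQ, which did not pass. They are read 5′ to 3′ on the gene's strand, and capitals mark the words:
CLSPN (chr1:35769950-35770009, minus strand): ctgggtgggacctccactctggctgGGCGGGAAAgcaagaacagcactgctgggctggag
RAD54L (chr1:46247613-46247672, plus strand): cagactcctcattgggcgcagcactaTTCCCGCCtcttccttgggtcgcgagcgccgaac
FANCD2 (chr3:10026407-10026466, plus strand): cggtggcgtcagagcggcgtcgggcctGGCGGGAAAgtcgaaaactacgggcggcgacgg
FANCL (chr2:58241389-58241448, minus strand): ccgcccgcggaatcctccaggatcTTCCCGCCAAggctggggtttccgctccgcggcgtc
BRIP1 (chr17:61863499-61863558, minus strand): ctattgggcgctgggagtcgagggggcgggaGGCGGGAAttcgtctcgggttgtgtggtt
EXO1 (chr1:241848174-241848233, plus strand): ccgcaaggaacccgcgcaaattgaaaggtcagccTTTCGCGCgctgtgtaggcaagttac
XRCC3 (chr14:103715422-103715481, minus strand): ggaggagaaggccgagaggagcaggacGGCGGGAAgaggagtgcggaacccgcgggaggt
POLQ (chr3:121545959-121546018, minus strand): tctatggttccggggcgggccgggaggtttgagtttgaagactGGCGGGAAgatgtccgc

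Of the genes shown, CLSPN, FANCD2, BRIP1, XRCC3 and POLQ carry a word of the same form close to the annotated start. Their log2 fold changes were -1.94, -1.45, -0.79, 0.47 and -0.02. A word was therefore present in genes that fell, rose or did not pass. A match describes letters only, and no binding was measured.

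The other genes of the pathway, from a separate list of 52, were also more often lower than higher. Of the 50 found and tested, 25 were lower, 13 higher and 12 did not pass, with a median log2 fold change of -0.32. The 4 with the smallest p all fell. ERCC1, which forms a crosslink-cutting nuclease with ERCC4, fell from 169 ± 6.16 to 76.3 ± 1.49 CPM. MAD2L2, a subunit of shieldin and of polymerase zeta, fell from 65.8 ± 4.03 to 22.4 ± 1.11 CPM, or by 0.61 on the log2 scale with the lengths as offset in place of 1.56. FIGNL1, a regulator of recombinase filaments, fell by 1.19, and RPA1, which coats single strands, by 0.84 on the log2 scale, or 0.27 with the offset. The split over this list depended on length. With the offset 22 were lower and 18 higher, beside 40.7% and 44.6% of all genes in that fit. On log2(FPKM + 0.1) 21 were lower and 21 higher (limma), beside 39.3% and 45.6% of all genes tested. For SLX1B the counts may be split with its near-identical copy SLX1A, and its log2 fold change of -2.69, singled out after its value was seen, did not pass. Control replicate 1 had 229 reads of it and the other control libraries 6 each.

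Beside these, 8 of 15 genes of end joining (53.3%) were lower and 4 (26.7%) higher, with a median of -0.26. Of all genes tested, 43.0% were lower and 42.0% higher. XRCC5, the larger Ku subunit, fell from 564 ± 18 to 316 ± 1.06 CPM. In a list of checkpoint clamp and fork genes, 8 of 15 (53.3%) were higher and 7 (46.7%) lower. The most changed there was CDC25A, a phosphatase that CHK1 targets, at 51.3 ± 1.81 and 13.2 ± 2.11 CPM. Genes of S phase and replication were lower in 25 of 34 cases (73.5%) and higher in 5 (14.7%), with a median of -0.51. Genes of G2 and mitosis were lower in 20 of 25 (80.0%) and higher in 1 (4.0%), with a median of -0.54. The summed level of the S phase list went from a range of 4237 to 4334 CPM in the control to 3296 to 3338 CPM in the knockout. That of the mitosis list went from 4654 to 4717 CPM to 3506 to 3536 CPM. The members' median of -0.57 lies close to both, and the part of the cell cycle in the members' fall was not tested. CDK12, a kinase known for its part in the transcription of long repair genes, did not pass, at 224 ± 16.3 and 214 ± 3.02 CPM (log2 fold change -0.065, or 0.042 with the lengths as offset). Its cyclin partner CCNK rose by 0.55 (adjusted p = 1.11e-10) and the related kinase CDK13 by 0.86 on the log2 scale (adjusted p = 5.64e-15).

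**Figure D4:**
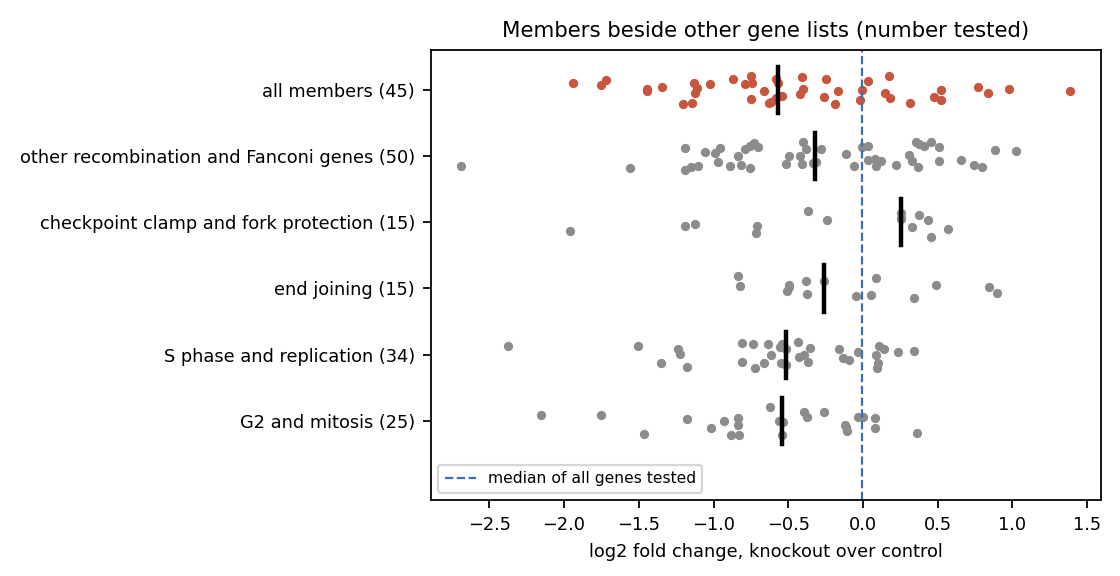
Log2 fold change (knockout over control) of each tested gene in the member list (red) and in 5 other lists (grey); black bars are list medians and the dashed line the median of all genes tested. The members' median of -0.57 stands beside -0.51 for S phase and -0.54 for mitosis, and the checkpoint clamp and fork list alone has a median above 0.

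Reads of overlapping genes could enter some members' counts. For genes on opposite strands this depends on the strand setting of the counting, which is not given in the sources used here. Overlaps on the same strand, such as those of RAD50 and RAD54B, do not depend on that setting. Exons of another protein-coding gene overlap those of 19 members in GENCODE. The largest shares were 79.7% of exon bases for RAD50, 76.7% for XRCC3 (with KLC1) and 59.1% for RAD54B (with FSBP). Of all genes tested, 43.0% were lower and 42.0% higher. Among the 26 members without such overlap, 15 (57.7%) were lower and 5 (19.2%) higher, with a median log2 fold change of -0.48. Of these 26, 3 (11.5%), BARD1, RBBP8 and CLSPN, were lower by at least 2-fold, beside 14.1% of all genes tested. That share covers genes with and without overlap, and none was computed for all genes without it. The other 9 members lower by at least 2-fold are among the 19 with an overlap (47.4%). Among those 9 the shares of exon bases were 25.1% for RAD54L, 23.6% for FANCA, 18.7% for FANCL and 6.7% for CHEK2. They were smaller for FANCD2 (3.12%), MRE11 (2.93%), CHEK1 (1.22%), RIF1 (0.914%) and ATM (0.597% with NPAT, 0.476% with C11orf65). The part of reads from the overlapping genes in these falls was not tested. The span of a gene on the chromosome had little relation to its change: Spearman's rho was -0.19 over the 45 members and 0.03 over 12749 genes tested, genes that share the same 6 libraries.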

How the data were processed

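Messenger RNA was measured by RNA-seq in 3 control and 3 RN7SK knockout libraries, prepared from TRIzol-extracted RNA, per the labels' protocols. HISAT2 2.2.1.0, Trimmomatic 0.36, FastQC 0.11.5 and GRCh38 appear, without role or order, per the submitters' processing notes. The counter, the annotation and the strand setting were not given in the sources used here. The authors deposited whole-number read counts per gene and, separately, FPKM. Total counts were 16018260 to 19357144 per library.

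The deposited counts were tested with edgeR 4.0.16 in R 4.3.3: filterByExpr, TMM scaling (factors 0.989 to 1.02), glmQLFit (robust) and glmQLFTest, two-sided, Benjamini-Hochberg adjusted over 12929 genes at 0.05. SE was taken from the fold change and its F statistic. The code was tested on simulated data. Libraries within a group differed by more than sampling noise (chi-square over degrees of freedom, 1.73 to 8.04, the highest values in pairs with control replicate 2). Gene lengths were recovered as count over FPKM and came out whole within 0.05 bases for 100.0% of values. Symbols were matched to RefSeq (GRCh38.p14) and exons to GENCODE 29. The members and lists were chosen with earlier results of these data known.

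Values in every library were given, by rule, for BRCA1, BRCA2, ATM, ATR, CHEK1, FANCD2 and TP53BP1 and, per role, the 2 called members of at least 5 CPM with the largest change. Alternatives were other scalings, filters, DESeq2 1.42.0, limma 3.58.1 (voom, and trend on log2(FPKM + 0.1) and log2(FPKM + 1) of the authors' FPKM), recovered lengths as offset, a replicate block, leaving out each library, and a threshold of 0.01.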

Additional observations from a re-analysis of the deposited data

How the results depend on the processing

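Of the 39 members that passed the test, 34 kept direction and call in all 18 alternatives. No such share was computed over all genes tested, and the count is a description only. ATR, FANCC and POLQ, which did not pass, passed in none of the 18, with values on both sides of 0. The count at least 2-fold higher, 1 in the main analysis, was 2 with upper quartile scaling or library size only, 0 on log2(FPKM + 0.1), log2(FPKM + 1) or with lengths as offset, and 1 to 2 with a library left out (2 without knockout replicate 2). Other pathway genes that were higher numbered 21 on both FPKM scales in place of 13. Of all genes tested, 45.6% and 45.5% were higher on these scales, in place of 42.0%. RAD51D turned to -0.54 on log2(FPKM + 0.1), -0.47 on log2(FPKM + 1) and -0.57 with the offset. WRN went to 0.054, 0.047 and 0.028 there, and did not pass. Both have recovered lengths that differ between the groups, and these enter all 3 settings. BRCA2 passed with no low-count filter (-0.27), in DESeq2 (-0.24) and without control replicate 2 (-0.41). UBE2T and TP53BP1 did not pass at 0.01. With the replicate block, 11 members were higher and 29 lower, the added one being BRCA2 (-0.24, adjusted p = 0.0078). Same-numbered libraries did not deviate together (r = 0.0142, -0.0212 and -0.00321 across genes), and not every library correlated best with its own number. Such values cannot tell whether same-numbered libraries shared a day or passage, which is not stated. The smallest member count was 83 reads, so depth limits RAD51B most.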
